A study of Oryza sativa Indica Group with 36 samples.

Results

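Besides the annotated rice genes, the expression tables list 1535 loci that carry no gene identifier and are named Rice_newGene with a number. They were chosen by that prefix alone and make up 1535 of the 35477 loci listed, next to 33622 loci with an OS identifier of the rice annotation and 320 with another form of identifier. They are called new loci here, a name that says only that the tables give them no annotated identifier.

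The libraries compared an OsPRR37 overexpression line, OsPRR37-OE5 in the indica rice Guangluai4 (OE), with Guangluai4 itself (GL). The uppermost fully expanded leaves of seedlings aged 45 days under natural long days were taken every 4 h from 4:00 to 0:00, with 3 biological replicates of each genotype at each hour, 36 libraries in all. The OE libraries are labelled as 1 line, and the promoter that drives OsPRR37 there is not given in the sources used here. 1 GL library at 0:00, replicate 3, carries a genotype field that names the overexpression line while its title places it in GL, and by the title it stayed among the GL libraries.

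OsPRR37 encodes a pseudo-response regulator, a protein of the plant circadian clock that in Arabidopsis relatives represses other clock genes around the day, and in rice it delays flowering under long days. A transcript assembler joins reads into transcripts and can list as new those that match no annotated transcript. Such transcripts can be long non-coding RNAs, genes that the reference annotation lacks, extra exons of a neighbouring gene, antisense transcripts, or copies of mobile elements, and the tables do not say which. Because the new loci were assembled from these reads, having some level is partly a condition of being listed.

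Libraries held 8065894 to 15769659 counts, with a median of 12531717. The 2 markers for the small subunit of Rubisco were high in all 36 libraries, at 3592 CPM (counts scaled to library size) or more, and the root marker RCc3 and the shoot meristem marker OSH1 were at 0 in all of them. An exact 0 in these tables can be a failed estimate: the leaf gene RCA, which encodes Rubisco activase, was listed at 0 in 9 libraries and reached 41902 CPM elsewhere. OsPRR37 itself lay between 800 and 1726 CPM in OE libraries and between 1.49 and 505 CPM in GL libraries, with no overlap of the genotypes.

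All 1535 new loci spanned more bases than the transcript length listed for them, by at least 50 bases, which leaves bases inside each that its transcript does not hold, as introns do. Among OS loci, 11850 of 33622 (35.2%) had a span equal to their length. The median transcript length was 1156 bases for new loci and 1149 bases for OS loci, and 1521 bases for the OS loci with introns. New loci lay on all 12 chromosomes, 753 on the plus and 782 on the minus strand, with 14 on contigs outside the chromosomes. Chromosome 11 held 5.85 new loci per 100 OS loci and chromosome 1 held 3.59.

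New loci were mostly weakly transcribed. Their mean level over the 36 libraries had a median of 1.08 FPKM (fragments scaled by length and depth), against 1.71 FPKM for OS loci. Fewer new loci were silent: 3 of 1535 had no count in any library, against 4304 of 33622 OS loci (12.8%). Fewer were high as well: 141 new loci (9.19%) reached 10 FPKM, against 9852 OS loci (29.3%). A single library had counts at 1220 to 1394 of the new loci, and 708 of them (46.1%) had counts in all 36 libraries, against 51.8% of OS loci. After the filter on low counts 1318 new loci were tested and 217 were not, and 20360 OS loci (60.6%) were tested. The median level of the tested loci was 1.45 FPKM for new and 9.24 FPKM for OS loci, so new and OS loci are set side by side below also at matched level. For this the OS loci were binned by mean log2 CPM and their share weighted by the bins of the new loci.

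**Figure D1:**
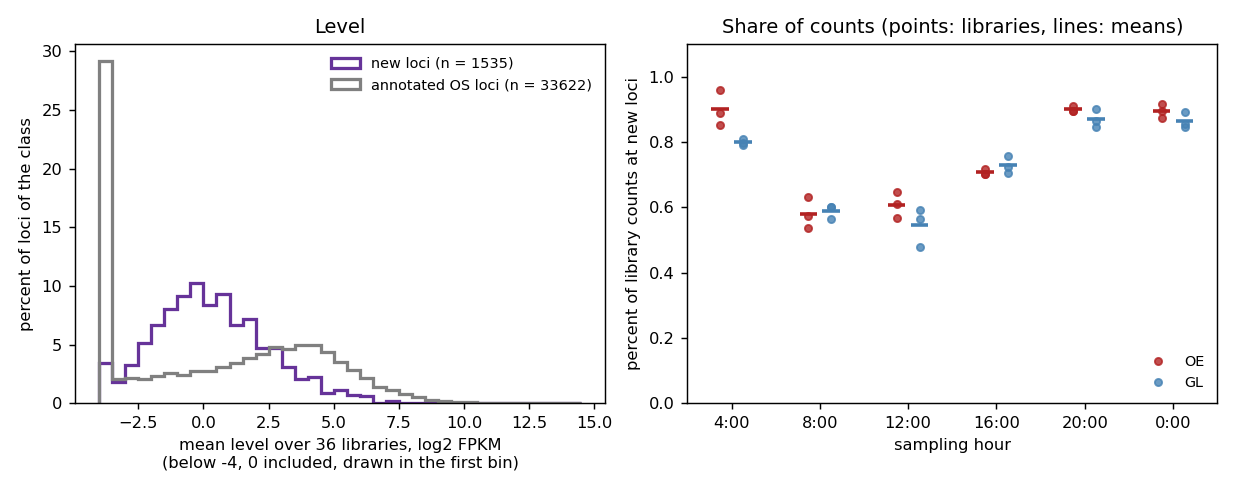
The left panel shows the percent of loci of each class by mean log2 FPKM over 36 libraries, new loci in purple and OS loci in grey. The right panel shows the percent of each library's counts that lay at new loci, by sampling hour, with OE left of GL, points for libraries and lines for means of 3. New loci have a single hump at a median of 1.08 FPKM, and their share is lowest at 8:00 and 12:00 in both genotypes.

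6 new loci averaged 100 FPKM or more. The highest was Rice_newGene_3992 (chromosome 6, 28638150 to 28641599, minus strand), with a mean of 857 FPKM and a listed transcript length of 401 bases. It had 89.0, 149 and 244 CPM (lowest, median and highest of 18 libraries) in OE, against 116, 156 and 317 CPM in GL, and the genotypes overlapped. Rice_newGene_1423 and Rice_newGene_1422 (chromosome 12, 5134150 to 5134536 and 5132532 to 5133406) averaged 326 and 173 FPKM. Both lie on the same strand as OS12G0199000, at 108 and 1238 bases from it, and over the 12 group means of log2 CPM both correlated with it at r = 0.99. Such neighbours may be pieces of 1 transcript, which these tables do not settle. Rice_newGene_1871 (chromosome 2, 3144136 to 3152702), at 103 FPKM, overlaps OS02G0157600 on the opposite strand with r = 0.93. The library kit is not one that marks strand, so reads from the 2 cannot be told apart. Of these 6 loci 3 were lower in OE in the test averaged over the hours (edgeR's quasi-likelihood test, Benjamini-Hochberg adjusted over all 21772 loci tested): Rice_newGene_1423 by a log2 change of -0.54 (adjusted p = 0.00499), Rice_newGene_1422 by -0.46 (adjusted p = 0.00604) and Rice_newGene_1871 by -0.30 (adjusted p = 0.0105). None of the 3 passed without replicate 2. Rice_newGene_1871 also lost its call without replicate 3 and with the replicate series as a random block.

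The new loci together took between 0.478% and 0.958% of a library's counts, with a median of 0.774%. The 100 highest of them held 53.9% of these counts. By hour the share averaged 0.900 ± 0.054% at 4:00, 0.580 ± 0.047% at 8:00, 0.609 ± 0.040% at 12:00, 0.708 ± 0.009% at 16:00, 0.900 ± 0.008% at 20:00 and 0.895 ± 0.021% at 0:00 in OE (SD, n = 3). In GL it averaged 0.799 ± 0.009%, 0.588 ± 0.021%, 0.544 ± 0.059%, 0.728 ± 0.026%, 0.870 ± 0.028% and 0.865 ± 0.025% at the same hours (SD, n = 3). It was thus lowest at 8:00 and 12:00 in both genotypes. The TMM factors, which rise where a few very abundant transcripts take less of a library, were 0.657 to 0.962 at those hours and 0.902 to 1.33 at the others.

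Averaged over the hours the share was 0.0327 percentage points higher in OE (0.765%) than in GL (0.733%), and higher at 4 of the 6 hours (permutation test of the genotype labels within hours, two-sided, p = 0.0132). The direction depends on the scaling. As a share of the TMM-scaled library size, an alternative chosen after seeing the data, the difference was -0.0169 percentage points (0.730% in OE and 0.747% in GL, permutation test p = 0.205). On that scale the dip at 8:00 was gone as well: the means at 8:00 were 0.788% in OE and 0.845% in GL, and the lowest were at 16:00 in OE (0.634%) and at 20:00 in GL (0.688%). Without replicate 3 the plain share no longer differed by the test (0.0256 percentage points, permutation test p = 0.132).

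In the test averaged over the hours 241 of the 1318 tested new loci (18.3%) passed at an adjusted p under 0.05, 136 higher and 105 lower in OE (edgeR's quasi-likelihood test, n = 18 libraries each). Over all tested loci 26% passed, 14% higher and 12% lower. OS loci weighted to the levels of the new loci passed at 21.5%, a difference in shares that was not tested. The 48 new and 146 OS loci with no usable error in this test count as not passed. The median log2 change was -0.03 over the new loci and -0.003 over all loci. The count rests on the replicate series: without replicate 2 it was 111 and without replicate 3 it was 144, and 100 passed with the replicate series as a random block.

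Large changes were a larger part of the calls among new loci than among OS loci, a comparison of shares that was not tested. The 2 classes were not chosen alike: new loci were assembled from these reads, whereas OS loci are listed at any level. A locus of either class could also pass the filter through the libraries of 1 genotype alone. The part of this selection in the shares was not tested. At least 8-fold higher in OE were 29 new loci (2.2% of those tested), against 44 OS loci (0.216%), 0.335% of all tested loci, and 0.458% of OS loci at matched level. With the replicate series as a random block 18 new loci were called at that fold. At least 32-fold higher were 16 new loci, against 12 of the 20360 OS loci, and 0.129% of all tested loci. For rises of at least 2-fold the contrast was gone: 83 new loci (6.3%; 3.64% of all), against 6.26% of OS loci at matched level. Rises outnumbered falls in both classes. Among OS loci 708 were at least 2-fold higher and 208 lower, and 44 were at least 8-fold higher and 12 lower. Only 2 new loci (0.152%; 0.0643% of all) were at least 8-fold lower, against 0.0773% of OS loci at matched level. At least 2-fold lower were 31 new loci (2.35%; 1.1% of all), against 1.54% of OS loci at matched level. A fold of a locus with almost no counts in 1 genotype depends on the prior count of the fit. On the log2(FPKM + 1) scale of limma 5 new loci, and on the log2(FPKM + 0.1) scale 15, were called at least 8-fold higher.

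**Figure D2:**
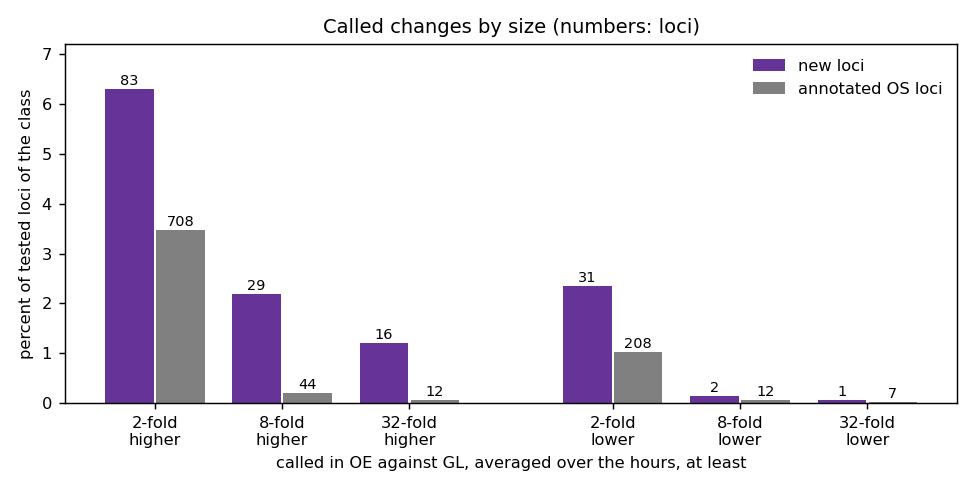
Bars give the percent of tested loci of each class, new loci in purple left of OS loci in grey, called in OE against GL over the hours with at least the fold on the horizontal axis. Numbers above the bars count the loci. At 8-fold higher stand 29 new and 44 OS loci, 2.2% and 0.216% of their classes.

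Of the 29 loci that were at least 8-fold higher 17 had almost no counts in GL: the 18 GL libraries together held at most 10 counts, and in 5 of the 17 they held none. The other 12 held 11 to 161 counts in GL, the most at Rice_newGene_4332, which held 3652 counts in OE, against 161 in GL spread over all 18 libraries. All 29 had a higher fitted value in OE at all 6 hours, 17 had counts in all 18 OE libraries, and in 14 the lowest OE library lay above the highest GL library. Their mean level in OE was modest, 0.452 to 22.8 CPM with a median of 2.86 CPM. They lay on 9 chromosomes, 7 of them on chromosome 12, 5 on chromosome 8 and 4 on chromosome 9. Of all 1535 new loci these 3 chromosomes hold 100, 116 and 85. A total of 20 lay within 5000 bases of an OS locus, including 4 that overlapped one. Among the 4, Rice_newGene_4783 runs from 15753037 to 16051223 with a listed transcript length of 596 bases. Of the tested new loci the 29 made up 0.962% of those that overlap an OS locus and 2.66% of those within 1000 bases. They made up 2.2% of those at up to 5000 bases and 4.02% of those beyond. The nearest tested OS loci of the 29 did not share the change in size: their log2 changes had a median of 0.03 and ran between -0.59 and 2.82. Of these 29 neighbours, some of them the same locus, 9 were called higher and 4 lower. Of all tested loci 14% were called higher and 12% lower. None of the neighbours was at least 8-fold higher. There were 3 pairs of such loci within 5000 bases of each other, Rice_newGene_5045 with Rice_newGene_5046, Rice_newGene_4782 with Rice_newGene_4783, and Rice_newGene_1358 with Rice_newGene_1459, so that the 29 loci are at most 26 separate places.

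6 rises were chosen by a rule, the largest among called loci that were higher at each of the hours and had a mean log2 CPM of 1 or more. Their folds, SE and p-values are therefore a description. With few or no counts in GL, they passed the filter on low counts through the OE libraries. Rice_newGene_1309 (chromosome 12, 408003 to 409912, plus strand) lies inside OS12G0107300 on the same strand. It had 3.63, 13.4 and 26.3 CPM (lowest, median and highest) in OE libraries, against 0 in all 18 GL libraries. With GL set to a limit of 3 counts over the group, OE was at least 1148-fold higher, a limit that covers counting error only. An exact 0 can be a failed estimate in these tables, and the part of reads shared with OS12G0107300 was not tested. The surrounding OS12G0107300 was higher by a log2 change of 0.67 (SE 0.06).

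Rice_newGene_4734 (chromosome 8, 5460602 to 5462920, minus strand) lies inside OS08G0193600, which runs on the opposite strand. It had 2.39, 17.7 and 42.4 CPM in OE libraries, against 0, 0 and 0.201 CPM in GL libraries, where 3 libraries held 5 counts in all. The averaged log2 change was 9.33 (SE 0.24, edgeR adjusted p = 8.48e-17). OS08G0193600 was higher too, by a log2 change of 1.51 (SE 0.16), and the 12 group means of the pair correlated at r = 0.94. Reads of the 2 strands cannot be told apart here.

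Rice_newGene_4388 (chromosome 7, 23631727 to 23635983) was even over the libraries. It had 7.16, 10.5 and 16.98 CPM in OE libraries, against 0, 0 and 0.1 CPM in GL libraries (log2 change 9.45, SE 0.21, edgeR adjusted p = 9.64e-18), with a fitted daily range in OE of 0.60 on the log2 scale. Rice_newGene_1493 (chromosome 12, 26060274 to 26061877) had 5.68, 11.9 and 23.1 CPM in OE libraries, against 0, 0 and 0.129 CPM in GL libraries (log2 change 8.91, SE 0.23, edgeR adjusted p = 7.75e-18). Both stood clear of GL in each library. Rice_newGene_5167 (chromosome 9, 13798223 to 13808639) had 3.91, 10.4 and 33.1 CPM in OE libraries, against 0, 0 and 0.134 CPM in GL libraries. Rice_newGene_4790 (chromosome 8, 16742363 to 16743340) is the most isolated of the 6, with its nearest OS locus 54186 bases away, and its lowest OE library had 3.75 CPM, against 0.301 CPM in the highest GL library. The 6 rises, chosen among called loci, kept their call in all 12 other fits of the same libraries and when any 1 library was left out. Their size was less firm: over these fits, limma's log2(FPKM + 1) scale included, Rice_newGene_4388 ran from 2.29 to 10.1 in log2 change. Rice_newGene_1309 ran from 3.58 to 10.4, Rice_newGene_5167 from 3.70 to 10.4 and Rice_newGene_4790 from 6.26 to 10.4. Rice_newGene_4734 ran from 3.20 to 9.85 and Rice_newGene_1493 from 3.84 to 9.68, which the SE above do not cover.

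Some of the large rises were present in only part of the OE libraries, and the absences followed the replicate number. A rule set after these values were seen took loci with at most 10 counts over the 6 libraries of 1 replicate number of a genotype and at least 100 in each of the other 2. In OE it found 5 new loci low in replicate 3 (1 OS locus), 2 low in replicate 1 (14 OS loci) and none low in replicate 2 (1 OS locus). In GL it found 2 new loci low in replicate 1 (2 OS loci) and none for the other numbers.

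The 5 loci low in OE replicate 3 were all among the 29. Rice_newGene_1358 held 236, 302 and 8 counts in OE replicates 1, 2 and 3, against 0 in GL. Rice_newGene_1390 held 205, 141 and 6 counts in OE, against 0 in GL. Rice_newGene_2325 held 131, 119 and 2 counts in OE, against 0, 0 and 1 in GL. Rice_newGene_5126 held 278, 235 and 0 counts in OE, against 1, 0 and 0 in GL. Rice_newGene_1459, which occupies the same place as Rice_newGene_1358 on the other strand (chromosome 12, 14221837 to 14225293), held 448, 204 and 8 counts in OE, against 0, 0 and 7 in GL. Another of the 29, Rice_newGene_4783, was low in replicate 1: it held 0, 102 and 490 counts in OE replicates 1, 2 and 3, against 2, 13 and 31 in GL, and it lost its call in 5 of the 12 other fits. In OE replicate 3 the few counts of Rice_newGene_1358, Rice_newGene_1390 and Rice_newGene_2325 were all in the library of 12:00. With the replicate series as a random block (a voom fit of limma) none of the 5 passed, at adjusted p values from 0.124 to 0.328. Without replicate 2 only Rice_newGene_1459 passed, and without replicate 1 Rice_newGene_2325 did not. By contrast Rice_newGene_1309, Rice_newGene_4790 and the other 4 rises chosen by the rule had counts in all 18 OE libraries. The absence was not particular to OE: Rice_newGene_39 held 5, 707 and 542 counts in OE replicates 1, 2 and 3, and 2, 993 and 984 counts in GL, low in replicate 1 of both genotypes. Whether the replicate numbers mark plants of different descent or batches is not given, and its part in these values was not tested.

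**Figure D3:**
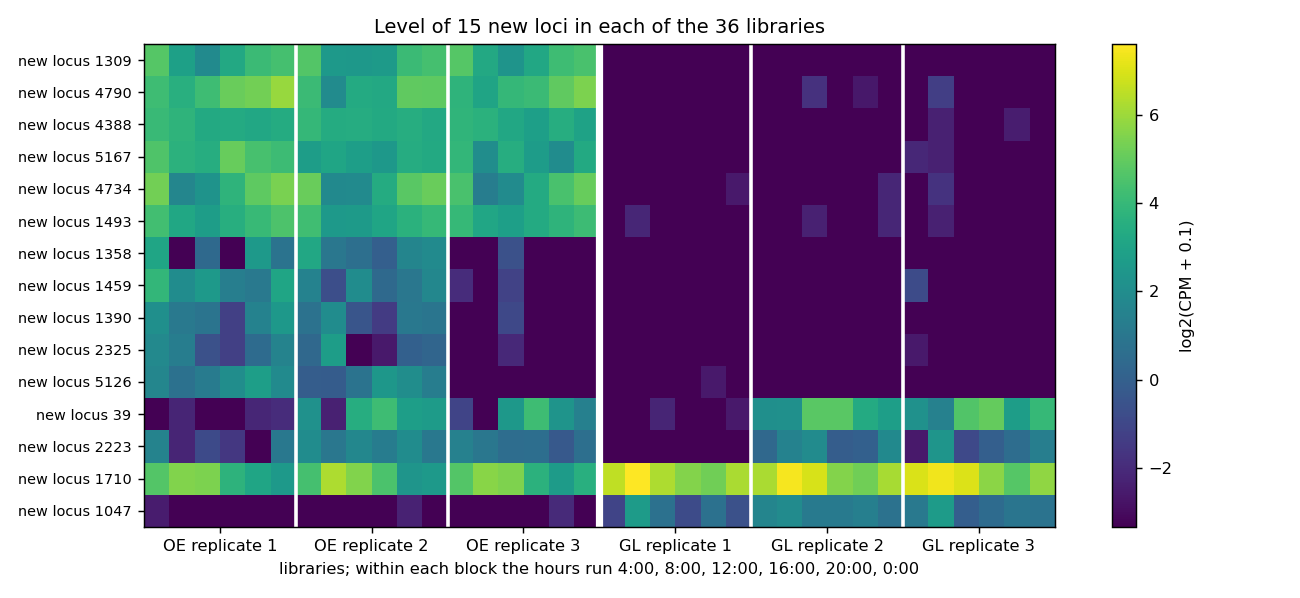
Each row is a new locus and each column a library, OE left of GL, grouped by replicate number with the hours from 4:00 to 0:00 inside each block. The colour gives log2(CPM + 0.1). The top 6 rows are present in all 18 OE libraries, the next 5 are at or near 0 in OE replicate 3, and Rice_newGene_39 and Rice_newGene_2223 are near 0 in GL replicate 1.

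The reverse pattern, present in GL and nearly absent in OE, was found at Rice_newGene_1047 (chromosome 11, 7832328 to 7835772, minus strand), 215 bases from OS11G0245650. It had counts in 3 of 18 OE libraries, 6 in all, against all 18 GL libraries with 435 counts. Its highest OE library had 0.145 CPM and its lowest GL library 0.374 CPM, so the genotypes did not overlap (log2 change -6.79, SE 0.47, edgeR adjusted p = 1.18e-09). The other of the 2 loci at least 8-fold lower, Rice_newGene_5149 on chromosome 9, held 42 counts in OE and 157 in GL (log2 change -3.16, SE 0.50, edgeR adjusted p = 6.07e-05). Both were named after their values were seen.

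Among the 6 falls chosen by the rule Rice_newGene_1710 was the largest. The falls were chosen by their values as well, so their sizes and p-values are a description. It lies on chromosome 2 (3556764 to 3560757, plus strand), 7860 bases from OS02G0165800, with a transcript length of 2745 bases and a mean of 19.2 FPKM. It had 5.08, 21.5 and 75.8 CPM (lowest, median and highest) in OE libraries, against 26.1, 73.7 and 193 CPM in GL libraries. Over all hours the genotypes overlapped, but at each hour the highest OE library lay below the lowest GL library. The averaged log2 change was -2.003 (SE 0.11, edgeR adjusted p = 3.63e-14), and each hour passed alone.

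Rice_newGene_3012 (chromosome 4, 23382098 to 23383370) had 0, 6.16 and 64.0 CPM in OE libraries, against 0.274, 15.6 and 86.2 CPM in GL libraries (log2 change -1.17, SE 0.18, edgeR adjusted p = 1.11e-05). Rice_newGene_2865 (chromosome 4, 25949559 to 25950371) had 0.482, 2.17 and 4.73 CPM in OE libraries, against 1.46, 5.35 and 10.1 CPM in GL libraries (log2 change -1.28, SE 0.16, edgeR adjusted p = 6.66e-07). Rice_newGene_5382, on a contig outside the chromosomes, averaged 6.13 ± 5.10 CPM in OE and 13.6 ± 9.62 CPM in GL (SD, n = 18 each), with a log2 change of -1.26. Rice_newGene_715 (chromosome 10) fell by 1.29 on the log2 scale and kept its call under each other fit. Rice_newGene_698 (chromosome 10) fell by 1.38 and lost its call without replicate 2 (edgeR adjusted p = 0.123). These 6 falls were gradual, of about 2- to 4-fold with counts in both genotypes, where the 6 rises were near to presence against absence. By the same rule 83 new loci were eligible, 43 of them higher and 40 lower.

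At single hours fewer new loci passed, and most of those were higher in OE. At 4:00 there were 46 (4.48% of all tested loci), 30 of them higher (1.97% of all). At 8:00 there were 41 (3.31% of all), 30 of them higher (1.94%). At 12:00 there were 35 (2.02% of all), 30 of them higher (1.42%). At 16:00 there were 65 (7.91% of all), 41 of them higher (4.75%). At 20:00 there were 38 (2.51% of all), 28 of them higher (1.1%). At 0:00 there were 34 (2.33% of all), 24 of them higher (1.28%). As shares of the tested new loci these are 3.49%, 3.11%, 2.66%, 4.93%, 2.88% and 2.58%. At matched level 2.3%, 2.15%, 1.25%, 5.74%, 1.47% and 1.36% of OS loci passed, so new loci stood above matched OS loci at 5 hours and below at 16:00, a comparison of shares with no test. Single libraries moved these counts by over 1.5 times. The count at 16:00 was 30 without GL replicate 1 of that hour, 38 without OE replicate 2 and 37 without OE replicate 3. It was 29 at 4:00 without OE replicate 3, 25 at 8:00 without GL replicate 2 and 23 at 12:00 without GL replicate 2. At 20:00 it was 24 without GL replicate 1 and 22 without GL replicate 2. With the replicate number as a block the counts were 86 at 4:00, 70 at 8:00, 55 at 12:00, 113 at 16:00, 65 at 20:00 and 52 at 0:00. With the doubted library of 0:00 moved to OE, 8 loci passed at 0:00. In all 114 new loci passed at 1 hour or more (8.65%; 14.2% of all), and 18 at all 6 hours (1.37%; 0.326% of all), 16 of these higher and 2 lower, against 53 OS loci. The 2 that were lower at all hours were Rice_newGene_1047 and Rice_newGene_1710.

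The genotype difference varied with the hour at 8 new loci (0.607%; 1.88% of all tested loci) in the interaction test of edgeR. At an unadjusted p under 0.05 there were 92, and with the replicate number as a block 21 passed. None of the 8 passed without replicate 2 (54 at an unadjusted p under 0.05) or without replicate 3 (60), and without replicate 1 Rice_newGene_1393 and Rice_newGene_4628 still did. Single libraries moved this count between 4, without GL replicate 1 or GL replicate 2 of 16:00 or OE replicate 3 of 12:00, and 17, without OE replicate 1 of 16:00. The curves are given as values. Rice_newGene_3294 (chromosome 5, 3178695 to 3181166), 499 bases from OS05G0154500, had its largest ratios at night. It averaged 5.31 ± 0.42 CPM in OE and 2.73 ± 0.14 CPM in GL at 20:00, 3.26 ± 0.36 CPM in OE and 1.09 ± 0.05 CPM in GL at 0:00, and 2.59 ± 0.53 CPM in OE and 2.87 ± 0.48 CPM in GL at 16:00 (SD, n = 3). Rice_newGene_4628 (chromosome 8, 11690277 to 11692245) had a shallower trough in OE: it averaged 0.961 ± 0.085 CPM in OE and 0.156 ± 0.185 CPM in GL at 12:00, and 7.85 ± 0.32 CPM in OE and 8.33 ± 1.25 CPM in GL at 4:00 (SD, n = 3). Rice_newGene_1393 (chromosome 12, 25480410 to 25483357) was higher in OE at 4:00, by a log2 change of 1.04 (SE 0.29, edgeR adjusted p = 0.0378), and lower in OE at 16:00, by -1.16 (SE 0.30, edgeR adjusted p = 0.0148). Rice_newGene_1710 lost most at night, with a log2 change of -3.10 (SE 0.28) at 0:00 and of -1.30 (SE 0.26) at 12:00. Rice_newGene_4715 was lower in OE at 8:00 by -1.46 (SE 0.29, edgeR adjusted p = 0.00319), and Rice_newGene_3014 was higher there by 0.88 (SE 0.19, edgeR adjusted p = 0.00926). Rice_newGene_1434 passed at no single hour. Rice_newGene_262 jumped within groups, for example between 0.0701 and 5.58 CPM in the OE libraries of 4:00, and also passed at no single hour.

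A 24-h rhythm, tested as a cosine curve in each genotype, was called in 647 new loci in OE (49.1%; 70.4% of all tested loci) and in 676 new loci in GL (51.3%; 71.8% of all). OS loci at the levels of the new loci passed at 59.3% in OE and at 60.7% in GL, shares that were not tested against each other. A total of 524 new loci (39.8%; 62.8% of all) were called in both genotypes. Of these 455 (86.8%) had fitted peaks within 2 h of each other in OE and GL, against 92.7% of OS loci called in both. Peaks lay over 4 h apart at 9 of the 524 new loci and at 105 of 13100 OS loci. These OS loci were not matched to the levels of the new loci. The shape of the curve differed between OE and GL at 1 new locus (0.0759%; 0.0919% of all), Rice_newGene_1710, whose fitted range was 3.31 in OE and 2.18 in GL on the log2 scale (difference 1.13, edgeR adjusted p = 0.0349). This call was lost without replicate 2, without replicate 3 and without the doubted library of 0:00.

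The rhythmic new loci had wide ranges, and the most frequent peak window was that of 0:00. The median peak-to-trough range was 2.12 in OE and 2.15 in GL on the log2 scale, against 1.44 in OE and 1.55 in GL for called OS loci. At low level a rhythm must be wide to be called, so these ranges are not compared by a test. The 4-h window centred on 0:00 held the peaks of 195 new loci in OE (30.1%) and of 172 in GL (25.4%). OS loci at matched level had 19.3% in OE and 17.3% in GL there. The window of 12:00 held 9.74% of new loci in OE and 8.88% in GL, against 13.7% in OE and 12.97% in GL for matched OS loci. The share at 0:00 was thus above that of matched OS loci in each genotype, by percentages alone and with no test.

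**Figure D4:**
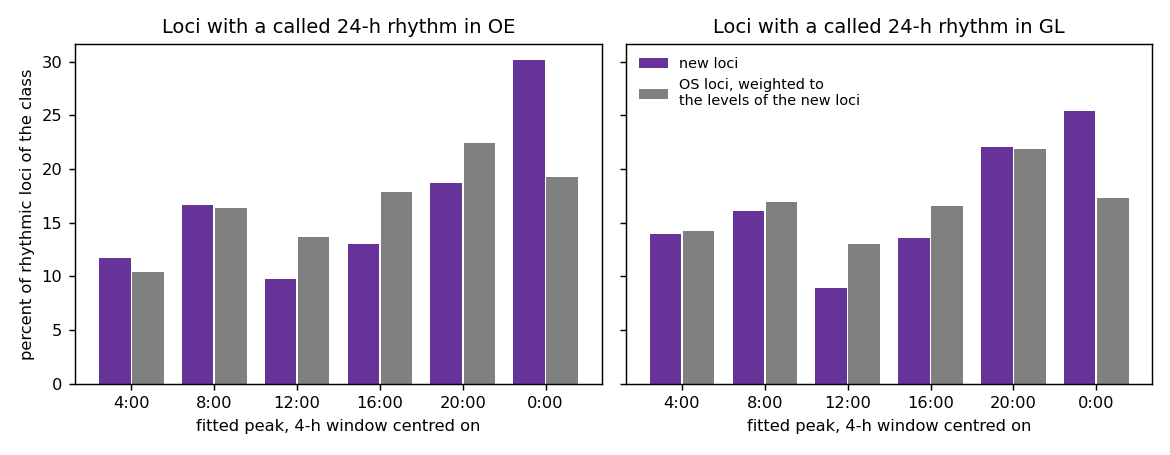
Percent of loci with a called 24-h rhythm whose fitted peak fell in each 4-h window, in OE (left) and GL (right). New loci are purple, and grey bars are OS loci weighted to the levels of the new loci. The window of 0:00 holds 30.1% of new loci in OE and 25.4% in GL, against 19.3% of OS loci in OE and 17.3% in GL.

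6 loci were chosen for the widest fitted range in GL, so their ranges are a description. All 6 had libraries at or near 0 in part of the day, where the fitted range is an extrapolation of the cosine on the log2 scale. Rice_newGene_4323 (chromosome 7, 3264389 to 3266656) is the clearest morning locus. It averaged 113 CPM in OE and 164 CPM in GL at 8:00, and 0.144 CPM in OE and 0.200 CPM in GL at 20:00. Rice_newGene_3020 (chromosome 4, 25649540 to 25651175) was nearly confined to 8:00 and 12:00, with 23.4 and 2.29 CPM in OE and 26.2 and 3.48 CPM in GL. It lies inside the wide bounds of OS04G0508900 (25435295 to 25667711) on the same strand. The 12 group means of the pair ran opposite, at r = -0.92. Rice_newGene_3760 (chromosome 6, 11952265 to 11955894) shared the late morning, with 4.65 CPM in OE and 11.7 CPM in GL at 8:00 and 4.83 CPM in OE and 11.4 CPM in GL at 12:00.

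Afternoon loci were fewer among them. Rice_newGene_2360 (chromosome 3, 34039035 to 34045069) averaged 51.9 CPM in OE and 62.7 CPM in GL at 16:00, against 0.611 CPM in OE and 1.37 CPM in GL at 8:00. It lies inside OS03G0812400, with which its 12 group means had r = -0.06, and that locus was higher in OE by a log2 change of 2.89 where the new locus was not called. Rice_newGene_2217 (chromosome 3, 2550597 to 2552846) averaged 7.09 CPM in OE and 14.1 CPM in GL at 16:00 and lies inside OS03G0145900, with r = 0.90. Rice_newGene_3012, described among the falls, had 56.5 CPM in OE and 78.4 CPM in GL at 8:00.

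Most new loci lay within 5000 bases of an annotated gene, as did most OS loci. Of the 1521 on chromosomes 468 (30.8%) overlapped an OS locus, 357 lay within 1000 bases of one, another 440 within 5000 bases and 256 farther away, and the median gap of those that did not overlap was 1940 bases. OS loci overlapped another OS locus in 35.5%, with a median gap otherwise of 2308 bases. Farther than 5000 bases from another OS locus lay 16.4% of OS loci, against 16.8% of new loci. The kind of overlap differed. Of the 468 overlapping new loci 408 lay wholly within the OS locus and 359 were on the same strand, whereas 10371 of 11923 overlapping OS loci had their partner on the opposite strand. Whether such a new locus lies in an intron of its host cannot be read from these tables, which give each locus only its outer bounds. Same-strand neighbours were the more frequent ones within 1000 bases (218 same, 139 opposite) and about as frequent as opposite ones beyond 5000 bases (131 same, 125 opposite).

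Calls were fewest among the loci that overlap an OS locus. In the averaged test 42 of 416 tested new loci that overlap an OS locus passed (10.1%), against 71 of 301 within 1000 bases (23.6%), 74 of 363 at up to 5000 bases (20.4%) and 51 of 224 beyond 5000 bases (22.8%). The rhythm followed the same order at its low end, with 40.4% called in OE and 42.5% in GL among overlapping loci, and 52.5% to 54.0% in OE and 50.8% to 59.5% in GL among the other classes. The median level was alike, 1.21 FPKM for overlapping loci and 0.940 to 1.30 FPKM for the others. No test of these shares was made.

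The 12 group means of a new locus resembled those of its nearest tested OS locus more when the 2 were close. A genotype difference that both loci share raises this likeness as a shared daily curve does. Over the 12 group means of log2 CPM, which share their libraries, the median r was 0.31 for overlapping pairs (412), 0.33 within 1000 bases (217), 0.14 at up to 5000 bases (283) and 0.04 beyond (392). Pairs of neighbouring OS loci had 0.65, 0.13, 0.12 and 0.07 in the same classes. For overlapping pairs the median r differed by strand among OS loci and hardly among new loci. On the same strand it was 0.31 for new loci (321 pairs) and 0.13 for OS loci (813 pairs). On opposite strands it was 0.34 for new loci (91 pairs) and 0.72 for OS loci (5708 pairs). Reads of overlapping loci on opposite strands cannot be told apart here, and the part of shared reads in r was not tested. Within 1000 bases r was 0.8 or more in 17.5% of the pairs, and in 22.6% of those on the same strand, against 9.93% of the OS pairs. This is a description with no test, and the OS pairs were not matched to the levels of the new loci.

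Of 17 clock and flowering genes on a list, OsPRR37 among them, 2 had a new locus within 5000 bases (11.8%), against 2280 of all 33622 OS loci (6.78%). Rice_newGene_1972 (chromosome 2, 24576621 to 24577807) lies 3814 bases from OsPRR1, a rice relative of the Arabidopsis clock gene TOC1, and wholly inside another locus, OS02G0618250, on the same strand. It had 0.0569, 0.876 and 3.15 CPM in OE libraries, against 0, 0.945 and 3.32 CPM in GL libraries. Rice_newGene_4395 (chromosome 7, 24797759 to 24800242) lies 4149 bases from OsMADS18, a MADS-box gene linked to flowering in rice, and 174 bases from its nearest OS locus, OS07G0605275. It had 1.08, 3.39 and 4.32 CPM in OE libraries, against 0.804, 3.89 and 6.72 CPM in GL libraries. Neither passed in the averaged test, at an hour or for a rhythm, and in both the genotypes overlapped. OsMADS18 itself was lower in OE by a log2 change of -1.68 (SE 0.05).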

How the data were processed

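Each of 36 leaf libraries came with 1 deposited table of loci. The submitters' processing notes name Cufflinks, Cuffdiff and TopHat2 and the build IRGSP-1.0, with versions not given in the sources used here. The authors' tables give an estimated count per locus, deposited as whole numbers, and an FPKM value. The estimates look rounded up, in which case a count of 1 can be a small fraction of a read. Another, normalized column was not used. Depth limits the new loci: counts under the filter were not tested, and folds against a group at 0 use a limit of 3 counts and cover counting error only.

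Counts were taken as deposited into edgeR 4.0.16 (R 4.3.3): filterByExpr over the 12 groups (minimum count 10), TMM, 1 fit of the 12 groups for the genotype tests, and 1 fit of a 24-h cosine for each genotype for rhythm. P-values were Benjamini-Hochberg adjusted over all 21772 loci tested, threshold 0.05. At 48 new loci with an hour at 0 in both genotypes the averaged test gave no usable error (SE over 20), and they count as not passed. CPM are TMM-scaled. The share of counts was tested by 100000 permutations of genotype within hours. Replicates are biological per the series text, and the 3 replicate numbers per group were used as a block in an alternative fit only. The labels do not say that they pair the genotypes, although same-numbered libraries deviated together (r over 0.1) in 16 of 18 pairs.

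DESeq2 1.42.0, limma 3.58.1 on log2(FPKM + 1), other scaling, no filter and left-out libraries were alternatives. The scripts were tested on simulated data. Named loci were the 6 largest rises and 6 largest falls in the averaged test (same sign at all hours, mean log2 CPM at least 1), the 6 widest GL ranges, the up to 3 largest gains and losses of range, the 6 highest FPKM, loci within 5000 bases of 17 clock and flowering genes, the nearest OS loci, and OsPRR37. Other named loci were chosen after their values were seen. The members and lists were chosen with earlier results of these data known. No sequence is shown.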

Additional observations from a re-analysis of the deposited data

Results flagged for a closer look

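The genotype difference varied with the hour, by the interaction test of edgeR's quasi-likelihood fit, at 8 new loci. The adjusted p was 0.0152 for Rice_newGene_1393, 0.0393 for Rice_newGene_1434, 0.0355 for Rice_newGene_1710, 0.0467 for Rice_newGene_262, 0.0232 for Rice_newGene_3014, 0.0237 for Rice_newGene_3294, 0.0269 for Rice_newGene_4628 and 0.0156 for Rice_newGene_4715. Rice_newGene_1710 also had a daily curve that differed between OE and GL in the cosine fit, at an adjusted p of 0.0349. When any 1 library was left out, Rice_newGene_1393 and Rice_newGene_4715 kept the interaction call in all 36 such fits, whereas Rice_newGene_262 lost it in 28, Rice_newGene_1434 in 21 and Rice_newGene_1710 in 13 of them. Groups held 3 libraries each, too few to look for a single outlying library.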

How the results depend on the processing

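The count in the averaged test was 111 to 263 when 1 replicate number or 1 library was left out, 100 with the series as a random block, and 210 to 295 in the other fits. Of the 241 loci 99 remained with the random block and 101 without replicate 2. The replicate block gave 295 loci, all 241 among them. Same-numbered OE and GL libraries correlated at 0.0637 to 0.521 in their deviations (median 0.215, against -0.179 for other numbers), over 0.1 in 16 of 18 pairs. At 8:00 and at 12:00 1 of the 3 pairs was under 0.1, at the other hours none was, and 13 of 18 correlated best with their own number. Deviations from a mean of 3 sum to 0, so positive values for the own number bring negative ones for other numbers. The block was kept as an alternative because the labels do not say that the numbers pair the genotypes. With the block the hours gave 86 (4:00), 70 (8:00), 55 (12:00), 113 (16:00), 65 (20:00) and 52 (0:00), the interaction 21 and the rhythm difference 2. Left-out ranges were 17 to 65 at 4:00, 13 to 44 at 8:00, 13 to 48 at 12:00, 15 to 120 at 16:00, 15 to 46 at 20:00 and 13 to 47 at 0:00, 0 to 32 for the interaction (54 and 60 at an unadjusted p under 0.05 where edgeR gave 0), 0 to 1 for the rhythm difference (67 and 63 unadjusted without replicates 2 and 3) and 461 to 608 in OE and 505 to 624 in GL for rhythm. With the doubted 0:00 library as OE the interaction gave 5 and 0:00 gave 8, and without that library the rhythm difference gave 0 (87 unadjusted). That difference gave 2 with RLE factors and 3 with no filter. Loci at least 8-fold higher numbered 5 with limma on log2(FPKM + 1), 15 on log2(FPKM + 0.1), 18 with the random block and 24 to 31 with libraries left out. Those at least 8-fold lower numbered 0, 1 and 1 in those 3 fits and 1 to 5 with libraries left out. The share of counts was 0.0256 to 0.0382 percentage points higher in OE with a replicate left out, and -0.0169 with TMM-scaled totals, chosen after seeing the data. The cause of these moves was not tested. Of 2344 values of named loci under alternatives 2209 kept their call, 135 lost it and 0 changed direction. The interaction p-values and fitted ranges among them have no direction to change, and many of the others were chosen for large changes. Low counts limit the rest: 217 new loci were not tested.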
